A study of Mus musculus with 32 samples.

Results

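The DNA replication genes described here are 42 genes that encode the machinery which licenses origins, unwinds DNA, copies it and supplies its nucleotides. They were taken by name, as genes with a probe annotated to their symbol alone, and all 42 were measured on the RNAi arrays among 18193 genes. On the 2-colour arrays 41 of them have a probe, Mcm7 having none, and 39 could be tested among 12034 genes. Rpa2 had values on 7 of the 18 arrays and Tyms on 5, so neither was tested there.

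All samples are E14TG2a mouse embryonic stem (ES) cells, an established line. In the RNA interference (RNAi) experiment they were transfected with a pSUPER-puro plasmid that was empty (vector, 5 arrays) or expressed RNAi against Nanog (5 arrays) or Pou5f1 (4 arrays). All 3 groups, vector cells included, were selected with 1 µg/ml puromycin from 24 h after transfection, for 3 days. Their RNA was measured on Affymetrix Mouse Genome 430 2.0 arrays as log2 levels. In the differentiation experiment cells received 0.1 µM retinoic acid (RA), 1% dimethyl sulfoxide (DMSO) or 3 mM hexamethylene bisacetamide (HMBA) for 2, 4 or 6 days. Each custom 2-colour array sets treated cells over untreated E14 cells as a log ratio. Every treatment and day has 2 arrays, 1 with the sample in Cy3 and 1 with it in Cy5, which makes 18. The untreated reference is shared by all 3 treatments. The labels do not state the base of the ratio, which is read as 2 here. The labels name no separate cultures, so p-values measure the spread between arrays, which may be technical.

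Replication starts when the origin recognition complex (ORC) binds DNA and, with Cdc6 and Cdt1, loads the ring of MCM2-7, the core of the replicative helicase. In S phase Cdc45 and the GINS complex join the ring, Mcm10 helps to activate it, and polymerases alpha, delta and epsilon copy the strands. The clamp Pcna, which replication factor C (RFC) loads, holds polymerases delta and epsilon. Many of these genes are transcribed at the G1/S border by E2F factors. ES cells divide fast with a short G1 phase, and that phase lengthens when they differentiate.

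The knockdowns were seen in the targeted genes. Pou5f1, which encodes Oct4, had a mean log2 level of 11.42 ± 0.089 (SD, n = 5) on vector arrays, 11.32 ± 0.16 (SD, n = 5) with Nanog RNAi and 9.03 ± 0.22 (SD, n = 4) with Pou5f1 RNAi. Nanog had 11.09 ± 0.079 (SD, n = 5) on vector arrays, 9.29 ± 0.15 (SD, n = 5) with Nanog RNAi and 9.70 ± 0.11 (SD, n = 4) with Pou5f1 RNAi. Marker genes of several cell types moved with the groups. With Pou5f1 RNAi 19.5% of all genes were called lower and 20.6% higher. Of the ES cell markers 12 of 12 were lower with it. The mean level of that list lay between 10.78 and 10.85 on vector arrays, between 10.16 and 10.28 with Nanog RNAi and between 8.77 and 8.99 with Pou5f1 RNAi. Pou5f1 and Nanog, the targeted genes given above, are on that list and count in it again. Trophectoderm markers were higher in 10 of 10, and their mean level lay between 5.49 and 5.59 on vector arrays, between 6.40 and 6.88 with Nanog RNAi and between 8.82 and 9.01 with Pou5f1 RNAi. The fibroblast list, which includes Vim and other genes that many cell types express, had 3 genes higher and 2 lower of 9, with a mean level between 5.11 and 5.25 on vector arrays and between 6.05 and 6.15 with Pou5f1 RNAi. Neural markers had 4 lower and 2 higher of 8 and went from between 6.33 and 6.47 to between 5.23 and 5.35. Mesoderm markers had 2 higher of 7, from between 4.82 and 4.96 to between 5.20 and 5.29. These 2, Eomes and Hand1, are also on the trophectoderm list and were counted there. Primitive endoderm markers had 4 higher and 6 lower of 12 with Pou5f1 RNAi and 6 higher with Nanog RNAi, where 12.1% of all genes rose. The part of these markers in the results below was not tested. In RNA from whole cultures, fewer dividing cells and less RNA per cell cannot be told apart.

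RefSeq windows (build GRCm38.p6) hold the 250 bases upstream of the gene start for 35 of the 42 genes. They were searched because many members moved together with Pou5f1 RNAi, as given further on. The 3 spellings of an E2F-type element, TTTCGCGC, TTTGGCGC and TTTCCCGC, were looked for on both strands, and spellings may overlap one another. At least 1 was found in 9 of the 35 members (25.7%), against 480 of 27025 genes with a window (1.78%). The box CCAAT was found in 23 of the 35 (65.7%) and in 37.5% of all genes, and TTTGAA, used as a comparison, in 5 of the 35 (14.3%) and in 18.3%. A match is a run of letters and no measured binding site. The 9 windows below are 60 bases each, written 5′ to 3′ in the direction of the gene, with the E2F-type letters or their reverse complement in capitals. They are shown because their letters are shared by subunits of ORC, MCM2-7, GINS, polymerase alpha and RFC. In the Mcm5 window 2 spellings overlap. For Mcm7 2 windows are listed, and the letters are in 1 of them.
Orc1: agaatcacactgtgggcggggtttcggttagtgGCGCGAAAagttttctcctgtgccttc
Orc3: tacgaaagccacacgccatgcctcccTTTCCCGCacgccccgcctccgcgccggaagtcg
Cdc6: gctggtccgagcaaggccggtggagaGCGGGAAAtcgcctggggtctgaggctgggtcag
Mcm5: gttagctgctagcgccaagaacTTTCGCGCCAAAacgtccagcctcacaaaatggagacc
Mcm6: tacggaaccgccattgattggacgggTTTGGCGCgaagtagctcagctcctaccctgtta
Mcm7: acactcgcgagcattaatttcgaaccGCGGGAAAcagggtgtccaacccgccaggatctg
Gins3: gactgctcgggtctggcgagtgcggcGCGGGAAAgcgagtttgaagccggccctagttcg
Pola1: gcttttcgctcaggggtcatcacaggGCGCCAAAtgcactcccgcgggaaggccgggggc
Rfc3: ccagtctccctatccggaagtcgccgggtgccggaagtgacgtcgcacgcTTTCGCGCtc

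These windows lie at chr4:108579394-108579453 (Orc1, forward strand), chr4:34614950-34615009 (Orc3, reverse strand), chr11:98907987-98908046 (Cdc6, forward strand), chr8:75109334-75109393 (Mcm5, forward strand), chr1:128359719-128359778 (Mcm6, reverse strand), chr5:138172015-138172074 (Mcm7, reverse strand), chr8:95633492-95633551 (Gins3, forward strand), chrX:93632260-93632319 (Pola1, reverse strand) and chr5:151651209-151651268 (Rfc3, reverse strand), all upstream of the annotated start. The letters nearest the start begin between 10 bases (Rfc3) and 165 bases (Mcm7) before it. Mcm6 also has TTTCGCGC farther upstream, outside the 60 bases printed.

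Pou5f1 RNAi lowered most of the replication machinery, and no member was called higher (0 also at an unadjusted p under 0.05). At a Benjamini-Hochberg adjusted p under 0.05 over all probe sets, 35 of 42 members fell and 0 rose, where 19.5% of all genes fell and 20.6% rose. The median difference from vector was -0.48 on the log2 scale, against -0.04 over all genes. Most members are bright, and 39 have a mean level of at least 8. Among genes of that level 35.7% fell and 31.1% rose, with a median of -0.05, while 33 of the 39 members fell, with a median of -0.53. This level was chosen after the data had been seen. Of all members 30 (71.4%) had a difference below -0.3, as did 16.9% of all genes and 29.8% of the bright ones. The falls were moderate in size, and the largest, of Pold2, was 3.06-fold.

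**Figure D1:**
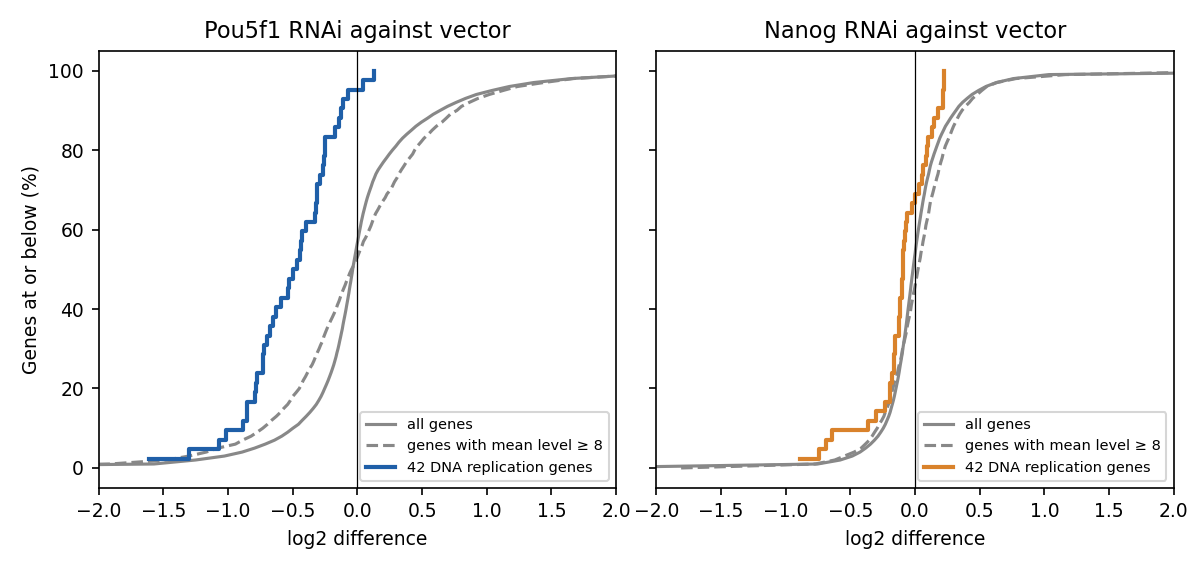
Share of genes (y axis, percent) whose difference from vector is at or below the value on the x axis (log2), for all genes (solid grey), genes with a mean level of at least 8 (dashed) and the 42 DNA replication genes (colour). With Pou5f1 RNAi (left) the members lie left of both grey curves, with a median of -0.48, and with Nanog RNAi (right) their median is -0.09.

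The fall was present on each of the 4 Pou5f1 RNAi arrays. The median over the 42 members, each taken as its level minus its vector mean, was -0.53, -0.62, -0.37 and -0.52 on these arrays, and 40, 41, 39 and 41 members lay below their vector mean. The 5 vector arrays had medians of -0.13, -0.08, 0.00, 0.08 and 0.15, which is the spread of the controls. The median over all genes of a mean level of at least 8 moved with that spread, from -0.10 to 0.09. Nanog RNAi arrays had medians of -0.14, -0.13, -0.16, 0.01 and -0.01. Every Pou5f1 RNAi array thus lay below every other array. In 31 members all Pou5f1 RNAi arrays were below all vector arrays, as in 17.5% of all genes.

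**Figure D2:**
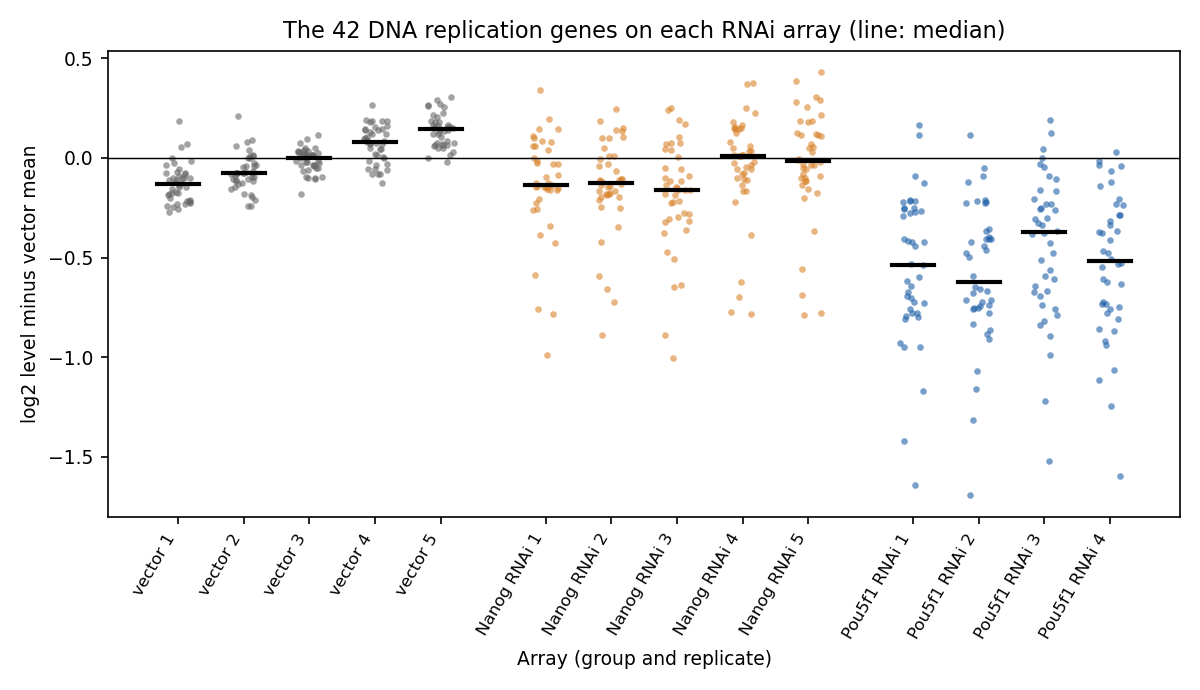
Each point is 1 of the 42 genes on 1 array, as its log2 level minus its mean on the 5 vector arrays (y axis), and the black line is the median of the array. The medians of the 4 Pou5f1 RNAi arrays lie between -0.62 and -0.37, below all vector and Nanog RNAi arrays.

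Among the licensing factors 5 of 6 ORC subunits fell with Pou5f1 RNAi. Orc1, the largest subunit and the one whose level follows the cell cycle, had 8.87, 9.09, 9.11, 9.27 and 9.29 on vector arrays and 8.33, 8.29, 8.45 and 8.32 with Pou5f1 RNAi. The groups did not overlap, and the difference was -0.78 ± 0.084 (adjusted p = 2.1e-07), a 1.72-fold fall. Orc5 fell by 0.63 ± 0.09, Orc3 by 0.50 ± 0.087, Orc2 by 0.33 ± 0.086 and Orc6 by 0.31 ± 0.074. Orc4 was not called, at 0.04 ± 0.087 (adjusted p = 0.78). Of the loaders, Cdc6 fell from 9.38 ± 0.17 (SD, n = 5) to 8.91 ± 0.16 (SD, n = 4), a difference of -0.47 ± 0.093 (adjusted p = 0.00041). Cdt1, which geminin holds in check outside G1, was not called (-0.17 ± 0.08, adjusted p = 0.12).

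All 6 subunits of the MCM2-7 ring fell. Mcm2 had 10.65, 10.74, 10.71, 10.71 and 10.70 on vector arrays, with little spread, and 9.98, 9.82, 9.81 and 9.78 with Pou5f1 RNAi, a difference of -0.85 ± 0.067 (adjusted p = 1.9e-09). Mcm6 had 11.05, 10.95, 11.10, 11.11 and 11.14 and 10.29, 10.16, 10.32 and 10.34, a difference of -0.79 ± 0.07 (adjusted p = 1.1e-08). In both genes the groups stand well apart, by far more than the spread within either. Mcm3 differed by -0.85 ± 0.087, Mcm4 by -0.68 ± 0.072 and Mcm5 by -0.66 ± 0.073. Mcm7, a member with E2F-type letters in its window, had the smallest fall of the ring, -0.32 ± 0.083 (adjusted p = 0.0049). The 6 differences have a median of -0.74, and the subunits, which act in equal numbers in 1 ring, differed by 1.25-fold to 1.81-fold from vector.

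Of the 6 factors that activate the helicase 4 fell. Gins1 had 8.32, 8.49, 8.61, 8.68 and 8.85 on vector arrays and 7.42, 7.43, 7.77 and 7.47 with Pou5f1 RNAi, where the third array stands above the other 3. Its difference was -1.07 ± 0.11 (adjusted p = 8.9e-08), a 2.09-fold fall. By its second brightest probe set Gins1 was not called. Gins2 fell by 0.73 ± 0.083 and Gins3 by 0.25 ± 0.087, the latter with overlapping groups (adjusted p = 0.031). The Gins3 call was lost without any 1 of 5 of the 9 arrays and with the replicate block. It was also lost with array medians subtracted and with the second brightest probe set. Gins4 was not called (-0.14 ± 0.09, adjusted p = 0.27). All 4 GINS proteins sit in 1 complex. Mcm10 fell by 0.79 ± 0.085 (adjusted p = 2.1e-07). Cdc45, the third part of the active helicase, had 7.35, 7.59, 7.47, 7.60 and 7.88 on vector arrays and 7.49, 7.46, 7.54 and 7.54 with Pou5f1 RNAi. Its groups overlap, and the difference of -0.07 ± 0.10 was not called (adjusted p = 0.67).

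The polymerases held the deepest falls, and 7 of their 8 genes were called. Pold2, the second subunit of polymerase delta, had 9.20, 9.38, 9.32, 9.22 and 9.39 on vector arrays, 8.52, 8.58, 8.42, 8.53 and 8.75 with Nanog RNAi and 7.66, 7.61, 7.78 and 7.71 with Pou5f1 RNAi. The 3 groups are fully separate, and the difference from vector was -1.61 ± 0.079 with Pou5f1 RNAi (adjusted p = 1.1e-12), the largest of all 42 genes. Pola1, the catalytic subunit of polymerase alpha, had 8.60, 8.73, 8.94, 8.90 and 8.98, 8.07, 8.17, 8.18, 8.14 and 8.15 and 7.41, 7.52, 7.61 and 7.59 in the same order. It differed by -1.30 ± 0.084 (adjusted p = 8.4e-11), a 2.46-fold fall, also without overlap. A second, dim probe set of Pola1, with a mean level of 3.44, gave 0.05 ± 0.10 (adjusted p = 0.80), so the fall rests on the bright one. The B subunit Pola2 was not called (-0.12 ± 0.08, adjusted p = 0.32), and the primase genes Prim1 and Prim2 fell by 0.44 ± 0.082 and 0.32 ± 0.092. Polymerase epsilon fell in both subunits that are members, Pole by 0.73 ± 0.1 and Pole2 by 0.72 ± 0.086. Its subunit Pole3, which is outside the 42 genes, rose, as given further on. Pold1, the catalytic subunit of polymerase delta, fell by 0.53 ± 0.11, a smaller value than that of its partner Pold2.

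All 6 genes of the clamp and its loader fell. Pcna had 12.28, 12.24, 12.42, 12.53 and 12.47 on vector arrays and 11.85, 11.74, 11.96 and 11.86 with Pou5f1 RNAi, without overlap, a difference of -0.54 ± 0.079 (adjusted p = 1.3e-05). Rfc5 had 10.45, 10.37, 10.62, 10.62 and 10.58 and 9.58, 9.67, 9.74 and 9.59, a difference of -0.88 ± 0.076 (adjusted p = 7.3e-09). Rfc5 is a small subunit of the loader, and its fall was the deepest of the 5 RFC genes. Rfc1, the large subunit, fell by 0.70 ± 0.098, Rfc4 by 0.44 ± 0.071, Rfc3 by 0.39 ± 0.10 and Rfc2 by 0.29 ± 0.081. Replication protein A, which coats single strands, fell in all 3 subunits, Rpa1 by 0.43 ± 0.096, Rpa2 by 0.59 ± 0.10 and Rpa3 by 0.26 ± 0.075, the last not called without the second Pou5f1 RNAi array.

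Of the 2 genes that finish Okazaki fragments 1 fell. Lig1, the ligase that seals them, had 9.90, 9.97, 10.02, 9.93 and 10.02 on vector arrays and 9.04, 8.90, 8.98 and 8.90 with Pou5f1 RNAi, a difference of -1.01 ± 0.074 (adjusted p = 5.6e-10), or 2.02-fold, with no overlap. Fen1, the flap nuclease, was not called at -0.13 ± 0.075 (adjusted p = 0.22). In nucleotide supply Rrm2, the small subunit of ribonucleotide reductase, had 10.86, 10.78, 10.90, 11.15 and 11.13 on vector arrays and 11.13, 11.08, 11.15 and 10.99 with Pou5f1 RNAi. These overlap, and its difference of 0.13 ± 0.085 was not called (adjusted p = 0.31). Rrm1, the large subunit, was called at -0.26 ± 0.10 with overlapping groups (adjusted p = 0.049). That call was lost in the fit of the 2 groups alone, with array medians subtracted, with either other choice of probe set and without any 1 of 7 of the 9 arrays. Tyms, thymidylate synthase, was called at -0.25 ± 0.069 (adjusted p = 0.0074) by the brightest of its 4 probe sets, which are all dim, and the other 3 were not called.

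**Figure D3:**
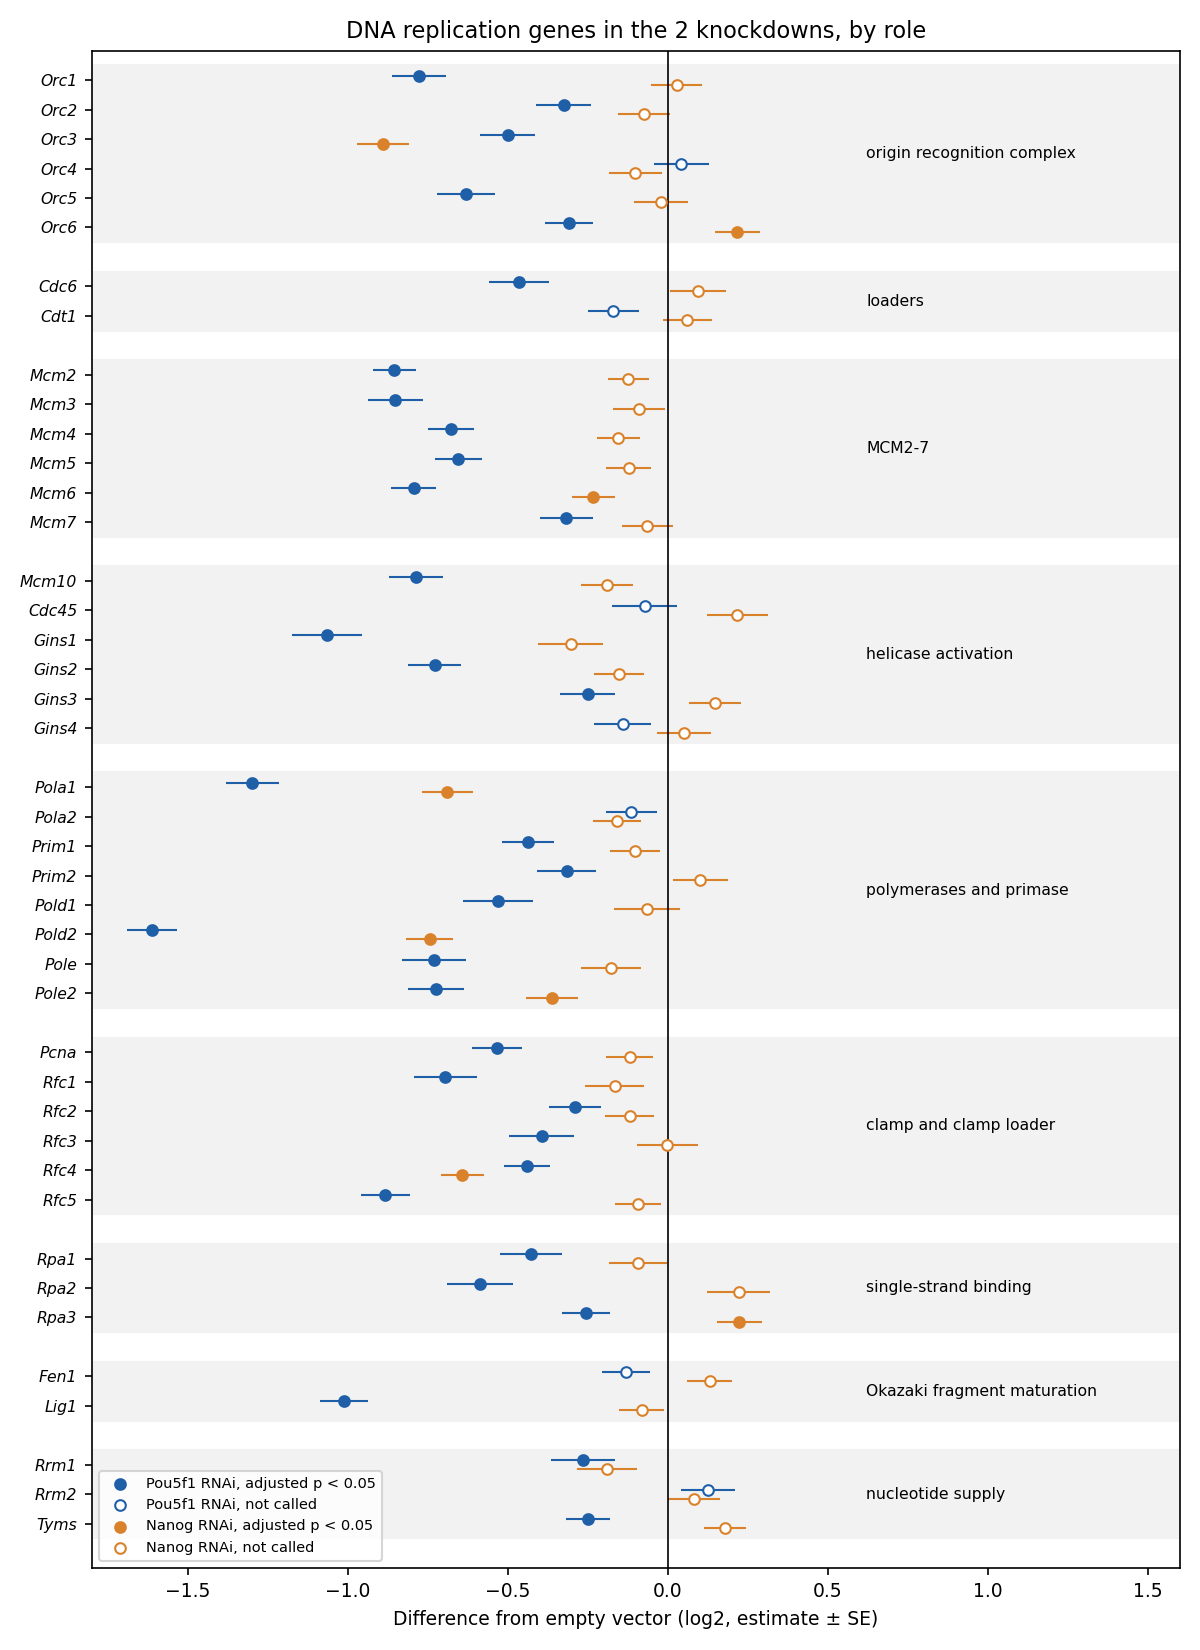
Difference from vector (x axis, log2, estimate ± standard error) of each of the 42 genes, in grey bands by role, with Pou5f1 RNAi in blue and Nanog RNAi in orange. Filled points passed an adjusted p under 0.05: 35 blue points lie left of 0 and none right of it, while 6 orange points lie left and 2 right.

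Of the 42 genes 32 have several probe sets, 95 in all, and for Pou5f1 RNAi 61 of the 95 were called lower and 0 higher. No gene had probe sets called in both directions. When the second brightest probe set stood for each gene that has one, 27 members were called lower, with a median of -0.34. Calls were lost for Orc3, Gins1, Gins3, Pola1, Pole2, Rfc3, Rfc4, Rrm1 and Tyms, and gained for Fen1. Of the 10 members with the smallest p, Pola1 alone then changed sign. Without any single array between 32 and 35 members were called. The levels of different genes come from different probes and are not compared. All 9 genes with E2F-type letters in the windows printed above were called lower, with a median of -0.50. So were 20 of the 26 whose window lacks the letters, with a median of -0.44. Of the 7 members with no window listed 6 were called lower, with the deepest median, -0.68. A link between the letters and the falls was not tested.

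Nanog RNAi changed few members. Called lower were 6 of 42 and called higher 2, against 8.77% and 12.1% of all genes and, among genes with a mean level of at least 8, 13.4% and 18.4%. The median was -0.09, with -0.02 over all genes. The count of lower calls is near the share of bright genes. The vector arrays are common to both knockdowns, so values of the 2 comparisons are given side by side.

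Orc3 had the deepest fall with Nanog RNAi. It had 8.85, 9.04, 9.05, 9.01 and 9.18 on vector arrays, 8.04, 8.14, 8.02, 8.24 and 8.24 with Nanog RNAi and 8.50, 8.35, 8.70 and 8.56 with Pou5f1 RNAi. No 2 of these groups overlap, and Nanog RNAi is the lowest. Its differences from vector were -0.89 ± 0.082 with Nanog RNAi (adjusted p = 1.1e-07) and -0.50 ± 0.087 with Pou5f1 RNAi, and the 2 knockdowns differed directly (0.39 ± 0.087 for Pou5f1 minus Nanog RNAi, adjusted p = 0.0013). Rfc4 ran the same way, with 9.45, 9.33, 9.40, 9.34 and 9.47 on vector arrays, 8.81, 8.81, 8.76, 8.78 and 8.62 with Nanog RNAi and 8.99, 8.94, 9.03 and 8.87 with Pou5f1 RNAi. Here too the 3 groups are separate. The difference with Nanog RNAi was -0.64 ± 0.067 (adjusted p = 6.6e-07), and Pou5f1 minus Nanog RNAi was 0.20 ± 0.071 (adjusted p = 0.037). No other member was called higher with Pou5f1 RNAi than with Nanog RNAi. The Rfc4 call between knockdowns was lost with the replicate block, with its second brightest probe set and without any 1 of 6 of the 9 arrays. That of Orc3 was lost with the mean of its probe sets and with the second brightest.

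Pold2 fell by 0.74 ± 0.074 with Nanog RNAi (adjusted p = 3.6e-07) and Pola1 by 0.69 ± 0.079 (adjusted p = 2.3e-06). Both lay between vector and Pou5f1 RNAi on all arrays, as the values given above show. Pole2 fell by 0.36 ± 0.081 (adjusted p = 0.0034), with 1 Nanog RNAi array at 8.35 among the vector values. Mcm6, with 10.81, 10.82, 10.79, 10.85 and 10.92, fell by 0.23 ± 0.066 (adjusted p = 0.019), a call that was lost with array medians subtracted. With the second brightest probe set, Pola1, Pole2 and Mcm6 all lost their calls with Nanog RNAi. The other 5 MCM2-7 genes were not called, though all lay below 0 (-0.16 to -0.06). Orc6 and Rpa3 rose. Rpa3, the smallest subunit of replication protein A, had 9.41, 9.31, 9.32, 9.23 and 9.19 with Nanog RNAi against 9.03, 9.16, 9.08, 8.99 and 9.08 on vector arrays, a difference of 0.22 ± 0.071 (adjusted p = 0.037), and Orc6 differed by 0.22 ± 0.07 (adjusted p = 0.04). Both had all Nanog RNAi arrays above all vector arrays, but both lost the call in a fit of the 2 groups alone and when single arrays were left out.

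Compared directly, the 2 knockdowns differed in most members. Pou5f1 RNAi was lower than Nanog RNAi in 34 of 42 and higher in 2, where 18.6% and 18.8% of all genes were called, and the median was -0.45. In 33 members all Pou5f1 RNAi arrays lay below all Nanog RNAi arrays, as in 18.1% of all genes. Lig1 had 9.83, 9.85, 9.81, 9.86 and 10.08 with Nanog RNAi, where its difference from vector was -0.08 ± 0.07 (adjusted p = 0.53). The difference between knockdowns was -0.93 ± 0.074 (adjusted p = 2.4e-09). Mcm2 differed by -0.73 ± 0.067, Rfc5 by -0.79 ± 0.076, Orc1 by -0.81 ± 0.084 and Mcm3 by -0.76 ± 0.087. For Rpa2 the value was -0.81 ± 0.10 (adjusted p = 2.5e-06), from 9.42 ± 0.15 (SD, n = 5) with Nanog RNAi and 8.61 ± 0.13 (SD, n = 4) with Pou5f1 RNAi. Mcm5 and Mcm6 differed by -0.53 ± 0.073 and -0.56 ± 0.07.

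Genes around the machinery were taken as further lists. Of 47 measured replication genes outside the 42, 27 fell and 6 rose with Pou5f1 RNAi, with a median of -0.41, where 19.5% of all genes fell and 20.6% rose. Fork proteins had 14 lower and 2 higher of 20, among them Rnaseh2a (-1.26 ± 0.075), a subunit of ribonuclease H2, and Atad5 (-0.90 ± 0.067), which helps to unload Pcna. Pold4, a small accessory subunit of polymerase delta, went the other way (0.97 ± 0.10, adjusted p = 1.9e-07), and so did Pole3 (0.27 ± 0.087). In the nucleotide list 4 of 7 fell, led by Dut (-1.39 ± 0.074), which breaks down dUTP, and Shmt1 (-1.12 ± 0.085), and 1 rose, Rrm2b (0.27 ± 0.099). Chromatin assembly had 5 lower and 2 higher of 11, with Hells (-1.38 ± 0.095) and Chaf1b (-0.67 ± 0.089) lower and the maintenance methyltransferase Dnmt1 (0.60 ± 0.10) higher. Of 9 firing factors 4 fell and 1 rose. With Nanog RNAi 13 of the 47 fell and 5 rose, with a median of -0.09, against 8.77% and 12.1% of all genes. Atad5 (-0.41 ± 0.063) and Rnaseh2a (-0.46 ± 0.071) fell there too, and Mcm9 (0.64 ± 0.12) rose.

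The G1/S regulators did not move one way. With Pou5f1 RNAi 12 of 32 rose and 12 fell, with a median of -0.15 (20.6% and 19.5% of all genes). The inhibitors of cyclin-dependent kinases Cdkn1c (4.04 ± 0.093) and Cdkn1a (1.54 ± 0.11) rose, with Myc (1.44 ± 0.095) and cyclin E2 (Ccne2, 1.02 ± 0.087). Mycn (-1.85 ± 0.068), cyclin D1 (Ccnd1, -2.21 ± 0.1), the E2F partner Tfdp2 (-1.40 ± 0.09) and E2f1 (-0.62 ± 0.1) fell. Of 24 mitosis genes 12 fell and 2 rose, with a median of -0.18 (19.5% and 20.6% of all genes). Bub1 (-0.94 ± 0.077) and Nusap1 (-0.81 ± 0.082) were lower and Mki67 (0.43 ± 0.081) higher. Nanog RNAi gave 8 higher and 4 lower of the 32 regulators and 2 higher and 4 lower of the 24 mitosis genes, where 12.1% of all genes rose and 8.77% fell. Cdkn1c (1.35 ± 0.088) and Myc (0.90 ± 0.09) rose there and Ccnd1 (-0.89 ± 0.094) fell.

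With the chemical inducers fewer of the same genes were called, and not all one way. The mean over days was called lower in 6 of 39 members with RA, 2 with DMSO and 8 with HMBA, and higher in 2, 1 and 2. Over all genes RA gave 10.5% lower and 17% higher, DMSO 8.6% and 10.7%, and HMBA 12.8% and 15.5%. Medians of the members were -0.21, -0.05 and -0.21, with 0.01, 0.02 and 0.00 over all genes. The standard errors come from the 2 arrays of each day, which differ in dye orientation, and leave out the spread between days. All arrays gave 15679 to 20019 probe values except the DMSO day 4 array with the sample in Cy5, with 11257. Arrays of the same orientation deviated together in all 36 pairs of groups (r from 0.51 to 0.92), so a dye term was also fitted. With it RA gave 18 lower and 4 higher (22.8% and 29.9% of all genes), DMSO 14 and 2 (20.2% and 25%) and HMBA 20 and 4 (25.5% and 27.4%). Single arrays decide part of these counts. The fits that leave out an array have no dye term, so each also unbalances the dyes. A call lost there cannot be told apart from an effect of dye orientation. Without the dye term RA had 8 calls, but 4 without its day 4 array with the sample in Cy5 and 5 without its day 6 array of that kind. HMBA had 10 calls, and 6 without its day 4 array with the sample in Cy5.

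**Figure D4:**
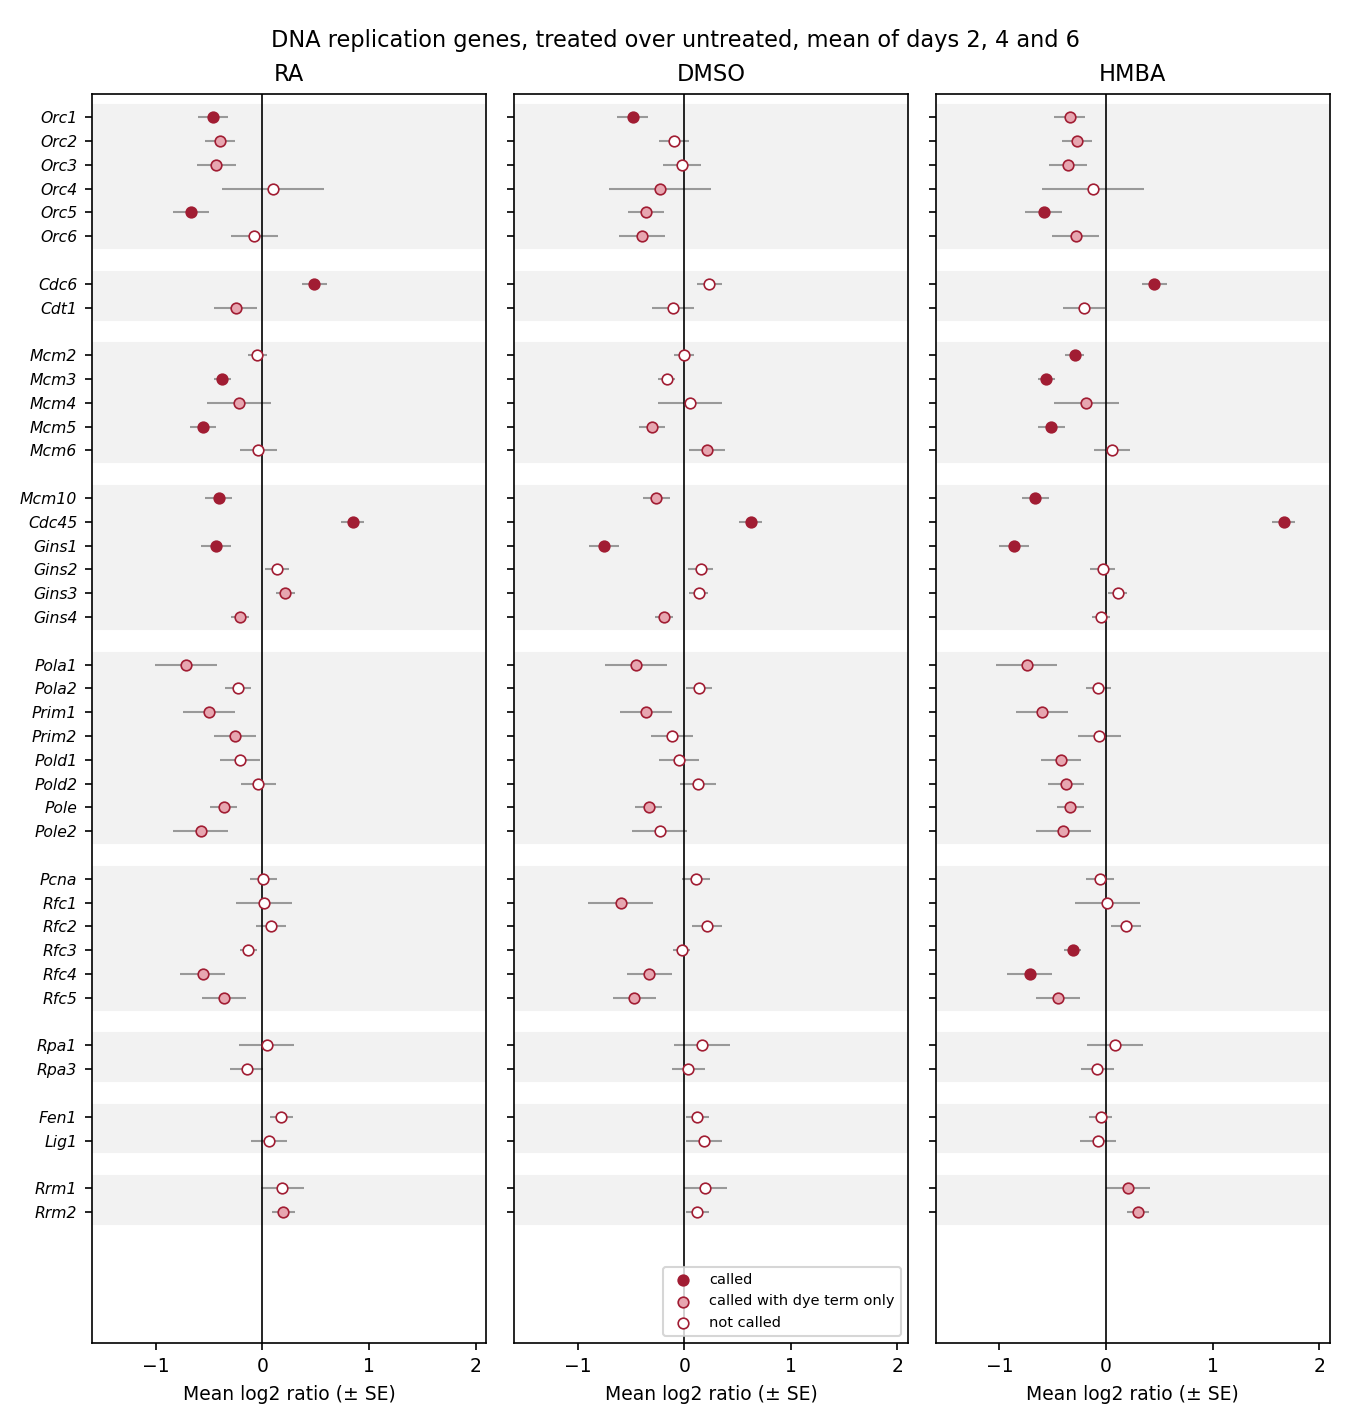
Mean log2 ratio of treated to untreated cells over days 2, 4 and 6 (x axis, estimate ± standard error) of the 39 tested genes, in grey bands by role, for RA, DMSO and HMBA. Dark points were called without a dye term, light points with it alone. Most called points lie left of 0, and Cdc45 lies right of 0 in all 3 panels, at 0.85, 0.63 and 1.67.

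Dye orientation was large in some members. Orc4 read 0.61 and -1.72 on day 2 of RA, 1.38 and -0.74 on day 4 and 1.53 and -0.45 on day 6, each pair being the array with the sample in Cy3 and then in Cy5. It was above 0 on all 9 Cy3 arrays and below 0 on all 9 Cy5 arrays. Mcm4, Pola1, Prim1, Prim2 and Rfc1 leaned the same way. The median over members was also lower on Cy5 arrays, at -0.25, -0.25 and -0.30 for RA against -0.03, -0.06 and 0.00 on Cy3 arrays, where the medians over all genes were 0.00, 0.01 and 0.02 on Cy5 and 0.06, 0.04 and 0.08 on Cy3 arrays. A balanced pair of arrays cancels such an offset in its mean, and the values below name both arrays in this order.

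Cdc45 rose with every inducer. HMBA gave 0.94 and 0.99 on day 2, 1.95 and 2.28 on day 4 and 1.66 and 2.18 on day 6, with all 6 arrays above 0 and both later days above day 2. The mean was 1.67 ± 0.11 (adjusted p = 3.6e-07), or 3.18-fold. RA gave 0.01 and 0.49 on day 2, 1.22 and 1.27 on day 4 and 1.03 and 1.08 on day 6, a mean of 0.85 ± 0.11 (adjusted p = 8.9e-05). DMSO gave -0.24 and -0.13 on day 2, 0.44 and 1.09 on day 4 and 1.32 and 1.26 on day 6, negative on day 2 and positive later, a mean of 0.63 ± 0.11 (adjusted p = 0.0014). The difference RA minus HMBA was -0.82 ± 0.15 (adjusted p = 0.0086) and DMSO minus HMBA -1.04 ± 0.15 (adjusted p = 0.0041), neither of which was called with the days as replicates. When the 3 days rather than the 2 arrays gave the spread, Cdc45 kept its call with HMBA but not with RA or DMSO. A single 2-colour probe measured this gene. On the RNAi arrays neither of its 2 probe sets was called with either knockdown against vector in the main fit. With the replicate block Cdc45 was called higher with Nanog RNAi (0.22 ± 0.07, adjusted p = 0.041), as without the fifth vector array. Pou5f1 minus Nanog RNAi was -0.29 ± 0.10 (adjusted p = 0.036). That call was lost with array medians subtracted, with either other choice of probe set and without certain single arrays.

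Cdc6, the loading factor, was the other member that rose. RA gave 0.42 and 1.17 on day 2, 0.62 and 0.70 on day 4 and -0.20 and 0.20 on day 6, and HMBA gave 0.80 and 0.67 on day 2, 0.71 and 0.45 on day 4 and 0.07 and 0.01 on day 6. Both treatments were high on days 2 and 4 and near 0 on day 6. The means were 0.49 ± 0.12 (adjusted p = 0.0086) and 0.45 ± 0.12 (adjusted p = 0.012), and DMSO, at 0.24 ± 0.12, was not called (adjusted p = 0.22). With the days as replicates neither rise of Cdc6 was called. The call of Cdc6 was also lost without the RA day 6 array with the sample in Cy5, and with HMBA without the day 2 or day 4 array with it in Cy3. A fit of the RA arrays alone lost the RA call of Cdc6 too. Adding the dye term, Rrm2 was called higher with RA and HMBA, Gins3 with RA, Rrm1 with HMBA and Mcm6 with DMSO. Rrm2 with HMBA was called higher in 4 further fits without that term, among them the one with the days as replicates.

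Gins1 fell with every inducer. HMBA gave -0.89 and -0.74 on day 2, -0.67 and -0.97 on day 4 and -0.60 and -1.33 on day 6, DMSO gave -0.22 and -0.88 on day 2, -0.60 and -1.23 on day 4 and -0.61 and -0.99 on day 6 and RA gave -0.04 and -0.64 on day 2, -0.47 and -0.78 on day 4 and -0.15 and -0.54 on day 6. All 18 arrays lay below 0. The means were -0.86 ± 0.14 (adjusted p = 0.00052), -0.76 ± 0.14 (adjusted p = 0.0022) and -0.44 ± 0.14 (adjusted p = 0.037). The RA call was lost without any 1 of 5 of the 6 RA arrays and in a fit of the RA arrays alone. The probes that stand for the other GINS genes were not called without the dye term and had HMBA means of -0.03 ± 0.12 (Gins2), 0.11 ± 0.089 (Gins3) and -0.05 ± 0.084 (Gins4). A second Gins2 probe was called higher with HMBA (0.51 ± 0.14, adjusted p = 0.016) and RA (0.47 ± 0.14, adjusted p = 0.025), and a second Gins4 probe lower with RA (-0.26 ± 0.082, adjusted p = 0.036), so the probes of these 2 genes disagree in their calls. Mcm10 gave -0.08 and -0.51 on day 2, -0.31 and -0.91 on day 4 and -0.81 and -1.36 on day 6 with HMBA, a mean of -0.66 ± 0.12 (adjusted p = 0.0016), and -0.41 ± 0.12 with RA (adjusted p = 0.027). With DMSO its -0.26 ± 0.12 was not called (adjusted p = 0.19). A mean over all Mcm10 probes was called with neither RA nor HMBA. The RA call was lost without any 1 of 3 of the 6 arrays and in a fit of the RA arrays alone.

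Of the ring, Mcm3 and Mcm5 fell with RA and HMBA. Mcm3 gave -0.21 and -0.37 on day 2, -0.56 and -0.42 on day 4 and -0.86 and -0.95 on day 6 with HMBA, deepest on day 6, with a mean of -0.56 ± 0.079 (adjusted p = 0.00019). With RA it gave -0.08 and -0.34 on day 2, -0.68 and -0.48 on day 4 and -0.38 and -0.30 on day 6, a mean of -0.38 ± 0.079 (adjusted p = 0.0035). That RA call was lost in a fit of the RA arrays alone. Mcm5 had means of -0.55 ± 0.12 with RA (adjusted p = 0.0051) and -0.51 ± 0.12 with HMBA (adjusted p = 0.0081), each with 6 of 6 arrays below 0, and the HMBA call was lost without the day 6 array with the sample in Cy3. Mcm2 fell with HMBA alone among the 3 tests, by 0.29 ± 0.091 (adjusted p = 0.032), where the RA mean was -0.05 ± 0.091 and the DMSO mean was -0.0041 ± 0.091. That call was lost without any 1 of the 6 HMBA arrays. Mcm4 and Mcm6 were not called without the dye term.

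In ORC, with the spread from the arrays and no dye term, Orc5 fell with RA and HMBA and Orc1 with RA and DMSO. Orc5 gave -0.12 and -1.02 on day 2, -0.35 and -0.9983 on day 4 and -0.37 and -1.19 on day 6 with RA and -0.33 and -0.96 on day 2, -0.15 and -0.93 on day 4 and -0.35 and -0.80 on day 6 with HMBA, below 0 on all 12 arrays and lower in Cy5. Its means were -0.67 ± 0.17 (adjusted p = 0.011) and -0.59 ± 0.17 (adjusted p = 0.024). Orc1 had -0.46 ± 0.14 with RA (adjusted p = 0.03) and -0.49 ± 0.14 with DMSO (adjusted p = 0.032), and the DMSO call was lost without any 1 of its 6 arrays. The RA call was lost without any 1 of 5 of the 6 RA arrays and in a fit of the RA arrays alone. Orc5 lost its calls without any 1 of the 3 arrays with the sample in Cy5, with RA and with HMBA. On those arrays it read lower, and leaving 1 out also unbalances the dyes. In the clamp loader Rfc4 fell by 0.72 ± 0.21 (adjusted p = 0.025) and Rfc3 by 0.31 ± 0.079 (adjusted p = 0.011) with HMBA, each on 6 of 6 arrays. Rfc4 lost its call without any 1 of the 3 HMBA arrays with the sample in Cy5 and Rfc3 without that of day 4. Pcna stayed between -0.06 ± 0.13 and 0.11 ± 0.13 and was not called. No polymerase or primase gene was called in the fit of all arrays and probes, with the spread from the arrays and no dye term. With RA, Pole was called when only probes with values on all 18 arrays were fitted. Without certain single arrays, Pole or Pole2 was called with RA and Pola1 or Pole with HMBA. With the days as replicates Pola1 and Prim1 were called lower with all 3 inducers, Pole2 with RA and HMBA and Pole with RA. In that fit Orc1, Orc5 and Rfc5 were also lower with all 3, Orc3 and Rfc4 with RA and HMBA, and Orc6 with DMSO. With the dye term, Pola1 was called with all 3 treatments, at -0.72, -0.45 and -0.75 (adjusted p = 2.3e-07, 7.6e-05 and 1.4e-07), and so was Prim1. Orc1, Orc5, Rfc4 and Rfc5 were called lower with all 3 treatments in that fit too.

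Between treatments few members differed. RA against DMSO gave 0 calls of 39 in limma (6.48% of genes), with 0 members at an unadjusted p under 0.05, and 3 with the dye term (23.6%), which were Orc6 and Rfc1 higher and Orc5 lower with RA. Rfc1 had values on 5 of the 6 DMSO arrays, and on 5 of the 6 with HMBA. RA against HMBA gave 1, Cdc45 (3.14%), and with the dye term 2, adding Gins1 (16.9%). DMSO against HMBA gave 1, Cdc45 again (1.75%), and with the dye term 4, adding Mcm3, Pold2 and Rfc4, all lower with HMBA (11.4%). Over time, day 6 against day 2, RA gave 0 (1.34%) and HMBA 0 (1.75%), with 2 and 6 members at an unadjusted p under 0.05. DMSO gave 1, Cdc45, at 1.47 ± 0.26 (adjusted p = 0.021, 1.13%). Its call was lost without any 1 of the 4 arrays compared. With the dye term the counts were 4 for RA (12.2%), 1 for DMSO (10.8%) and 4 for HMBA (11.3%), and Cdc45 was among them each time, higher on day 6.

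**Figure D5:**
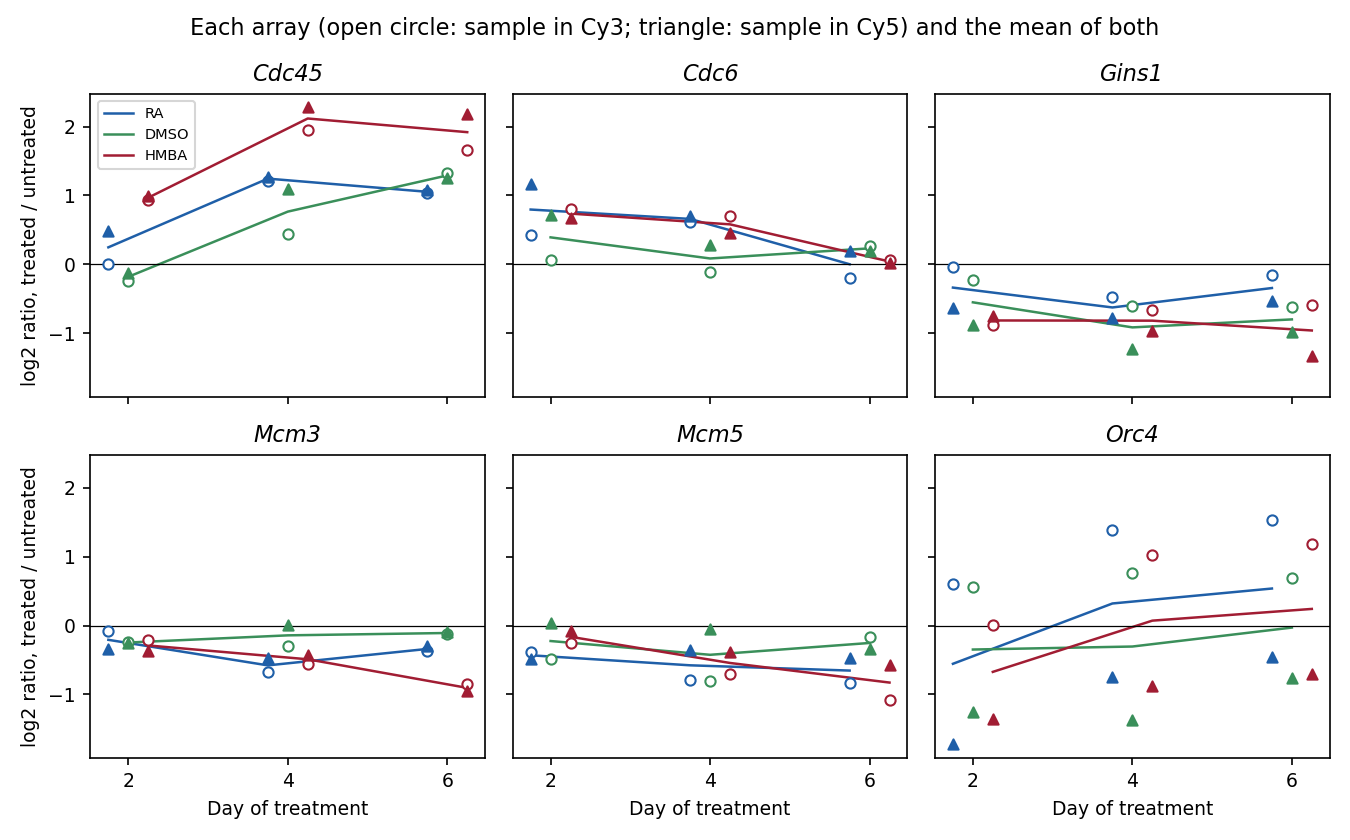
Log2 ratio of treated to untreated cells (y axis) by day (x axis) for 6 genes, with every array shown and a line through the mean of each pair. Cdc45 is highest with HMBA on days 4 and 6, Gins1 lies below 0 on all arrays, and in Orc4 the arrays with the sample in Cy3 (circles) and in Cy5 (triangles) lie on opposite sides of 0.

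The surrounding lists were also tested with the inducers. Of 38 other replication genes 6 fell and 1 rose with RA (10.5% and 17% of all genes), 4 and 2 with DMSO (8.6% and 10.7%), and 9 and 1 with HMBA (12.8% and 15.5%). Shmt1 fell by 1.23 ± 0.12, 1.36 ± 0.12 and 1.48 ± 0.12, and Dtymk, thymidylate kinase, by 0.49 ± 0.087, 0.86 ± 0.087 and 0.96 ± 0.087. Among 28 G1/S regulators Mycn fell with all 3 (-1.20 ± 0.15, -1.31 ± 0.15 and -1.44 ± 0.15). Cdkn1c rose with RA (2.54 ± 0.089) and HMBA (1.61 ± 0.089) and fell with DMSO (-0.29 ± 0.089). Mitosis genes had at most 2 of 23 lower and 1 higher. ES cell markers fell in 11 of 12 with RA, 10 with DMSO and 11 with HMBA, and fibroblast markers rose in 6, 4 and 5 of 9. The shares of all genes are those given above. Counts of the other marker lists, and of fibroblast markers that fell, are not given here. What part these markers have in the results was not tested.

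The RNAi and inducer experiments share no array, so their calls can be set together for the 39 genes tested in both. Every member called lower with an inducer without the dye term was also called lower with Pou5f1 RNAi, which held for 6 of 6 with RA, 2 of 2 with DMSO and 8 of 8 with HMBA. Of all 39 members 32 fell with Pou5f1 RNAi. Over the 11037 genes on both platforms 55.1%, 55.7% and 60.1% of those lower with an inducer were lower with Pou5f1 RNAi. Taken the other way, the shared members are 18.8%, 6.25% and 25% of the 32, below the 24.8%, 20.5% and 32.6% found over all genes. With the dye term the counts were 16 of 18, 12 of 14 and 20 of 20, where 45.6%, 44.8% and 48.8% of genes lower with an inducer were lower with Pou5f1 RNAi. They make up 50%, 37.5% and 62.5% of the 32 members, with 44%, 38.5% and 52.6% over all genes. Across the 39 genes the values of Pou5f1 RNAi and HMBA had r = 0.50 (Spearman 0.55), with r = 0.56 across all genes on both platforms, a description of genes that are not independent. Mcm3, Mcm5, Mcm10, Gins1 and Orc5 were lower with Pou5f1 RNAi, RA and HMBA. Cdc6 fell with Pou5f1 RNAi and rose with RA and HMBA, and Cdc45 rose with all 3 inducers and was not called with Pou5f1 RNAi.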

How the data were processed

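Expression was measured on 14 single-colour Affymetrix arrays and 18 two-colour arrays. The deposited single-colour values are log2 levels made by the authors with RMA, per the submitters' processing notes. The deposited 2-colour values are log ratios of treated to untreated cells, turned that way on every array per the labels' descriptions. Other steps that made both kinds of values are not given in the sources used here. Files hold no spot intensities, and array number limits the precision.

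A gene was measured by the probe annotated to its symbol alone, using the brightest on the RNAi arrays and the one with values on the most arrays otherwise. Probes with several symbols were left out. All 45037 probe sets and the 16657 ratio probes with a value in every group were fitted with limma 3.58.1 in R 4.3.3, without a dye or replicate term, and a call is a Benjamini-Hochberg adjusted p under 0.05. The scripts were tested on simulated data. Arrays of equal number in the RNAi groups did not deviate together in 8 of 13 pairs, so these numbers were not used as pairs. Between vector and Nanog RNAi r ran from 0.089 to 0.437, and a fit with the numbers as a replicate block is given below. On the 2-colour arrays the number is the dye orientation.

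Members and gene lists were chosen with earlier results of these data known. Named were up to 10 called members per direction and comparison in order of p, those called against the majority, and up to 4 genes of each other list. Further genes with values were chosen after their values were seen. Alternatives were other probe choices, scalings, blocks and leaving out each array.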

Additional observations from a re-analysis of the deposited data

Results flagged for a closer look

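In 54 groups of 4 or 5 RNAi arrays (17 named members and the median over all members), 4 held an array that stands apart from the others, and chance alone flags about 1 in 20 groups. Of these, 3 are on the fifth Nanog RNAi array. There Lig1 read 10.08, with the others between 9.81 and 9.86, Pole2 read 8.35, with the others between 7.98 and 8.06, and Rfc4 read 8.62, with the others between 8.76 and 8.81. On the third Pou5f1 RNAi array Gins1 read 7.77, with the others between 7.42 and 7.47.

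Cdc45 differed between treatments. RA minus HMBA was -0.82 and DMSO minus HMBA was -1.04 in limma's test of the difference itself. With DMSO it also differed between day 6 and day 2, by 1.47, and that call was lost without any 1 of the 4 arrays.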

How the results depend on the processing

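For Pou5f1 RNAi against vector the count of called members lay between 32 and 35 when each array was left out (median -0.55 to -0.44) and was 34 with the replicate block. With the second brightest probe set it was 27 and the median -0.34, and Pola1 reversed to 0.045 against vector and to 0.070 against Nanog RNAi, where the value comes from another, dim probe set. Nanog RNAi against vector had 6 to 8 calls (median -0.13 to -0.06) without single arrays and 10 with the replicate block, which added Gins1 lower and Cdc45 higher. Arrays of the same number in these 2 groups had r from 0.089 to 0.437, and over all 13 pairs of the 3 groups r ran from -0.246 to 0.437 and passed 0.1 in 5, so the numbers were not taken as pairs. Pou5f1 against Nanog RNAi had 31 to 36, and 35 with the block. Of the named members, 8 of 10 with Pou5f1 RNAi and 3 of 8 with Nanog RNAi kept their call in all alternatives.

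For the inducers, the dye orientation as a replicate block raised the calls from 8 to 22 (RA), from 3 to 16 (DMSO) and from 10 to 24 (HMBA). Between treatments it gave 3 (RA against DMSO), 2 (RA against HMBA) and 4 (DMSO against HMBA), and over days 4 for RA, 1 for DMSO and 4 for HMBA. With the dye pair averaged and days as replicates RA had 13 (13 lower and 0 higher), DMSO 7 (7 and 0) and HMBA 15 (13 and 2), where 13%, 9.68% and 15.4% of all genes were lower, and both differences from HMBA had 0. A fit of only the treatments compared gave 3 for RA and 0 for the days of DMSO. Without single arrays RA had 4 to 9 (4 without its second day 4 array, 5 without its second day 6 array), DMSO 2 to 3, HMBA 6 to 9 (6 without its second day 4 array) and the days of DMSO 0. Medians then lay between -0.23 and -0.12 (RA), -0.08 and 0.01 (DMSO) and -0.30 and -0.10 (HMBA). These fits had no dye term, so each also unbalanced the dyes. The RA medians were -0.23, -0.20 and -0.22 without a Cy3 array and -0.12, -0.16 and -0.13 without a Cy5 array (days 2, 4 and 6). Of the named members 1 of 8 (RA), 1 of 3 (DMSO) and 3 of 10 (HMBA) kept their call throughout. With 2 arrays per treatment and day, differences between days were poorly resolved. Except as given here, the cause of these changes was not tested.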
